A study of Mus musculus with 6 samples.

Results

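The genes described are 43 markers of mesoderm, endoderm and fibroblasts, 3 kinds of cell other than the cortical progenitors studied. They were chosen by name, 25 as mesoderm and endoderm markers and 18 as fibroblast markers, out of 21887 protein-coding genes of the RefSeq table. Binding of Bcl6, a zinc finger transcriptional repressor, was mapped near them by ChIP-seq, which sequences the DNA that an antibody pulls down, in cortical progenitors made from the A2 lox.Cre Bcl6 line of mouse embryonic stem (ES) cells. These cells carry a tetracycline-inducible Bcl6 transgene, had been kept on irradiated embryonic fibroblasts as ES cells, and were differentiated in DDM medium with cyclopamine, a hedgehog pathway inhibitor, at 400 ng/mL from day 2 to day 10. All 6 libraries came from day 12 with Bcl6 induced for 24 h by doxycycline at 1 µg/ml. Chromatin of 3 libraries was precipitated with a Bcl6 antibody, and the other 3 held input DNA.

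Peaks were called by the authors on the 3 ChIP libraries pooled, against the pooled input, so the peak values have no replicate error and no test could be made. Every peak value is the authors' own. Induced and endogenous Bcl6 cannot be told apart, since uninduced cells were not analysed here. The pooled ChIP kept 11718276 of 56836596 tags at 1 tag per position. The pooled input kept 5048582 of 12808138, and together they gave 3878 peaks. No RNA was measured, so the files do not show whether these cells expressed any of the 43 genes or carried remaining feeder fibroblasts.

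Mesoderm and endoderm arise from the primitive streak under the T-box, Mix, Mesp, Gata and Sox families of transcription factors. Fibroblasts are mesenchymal cells that secrete collagens and other matrix proteins and are known by a set of growth factor receptors and surface proteins. Snail and Twist factors drive the epithelial to mesenchymal transition and also act in the neural crest, as Pax3 does.

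The authors' gene list, which ties each peak to genes by position, named a peak for 4 of them (9.30%), against 20.1% of all protein-coding genes. They were Gata6, Snai1 and Pax3 of the 25 mesoderm and endoderm markers (12.0%) and Loxl1 of the 18 fibroblast markers (5.56%). The other 39 had no listed peak. None of the 43 was listed for a peak within 5 kb of its transcription start site (TSS), where 12.8% of all protein-coding genes were.

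Peaks were also counted by coordinates alone, without the authors' list. A peak centre lay within 5 kb of the gene body for Fn1 alone, 1 of 43 (2.33%), against 18.4% of all protein-coding genes. Widening the window to 10 kb added Tbx6, giving 2 of 43 against 21.1%. Within 1 kb of either end of the gene there was a peak centre for 0 of 43, against 12.0% of all protein-coding genes. Within 100 kb of the gene body a peak centre was found for 8 of 43 (18.6%), against 45.2%. The 8 were Fn1, Snai1, Mesp1, Mesp2, Tbx6, Thy1, Loxl1 and Nkx2-5. In each of these windows fewer members than genes in general had a peak, a difference that was not tested.

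**Figure D1:**
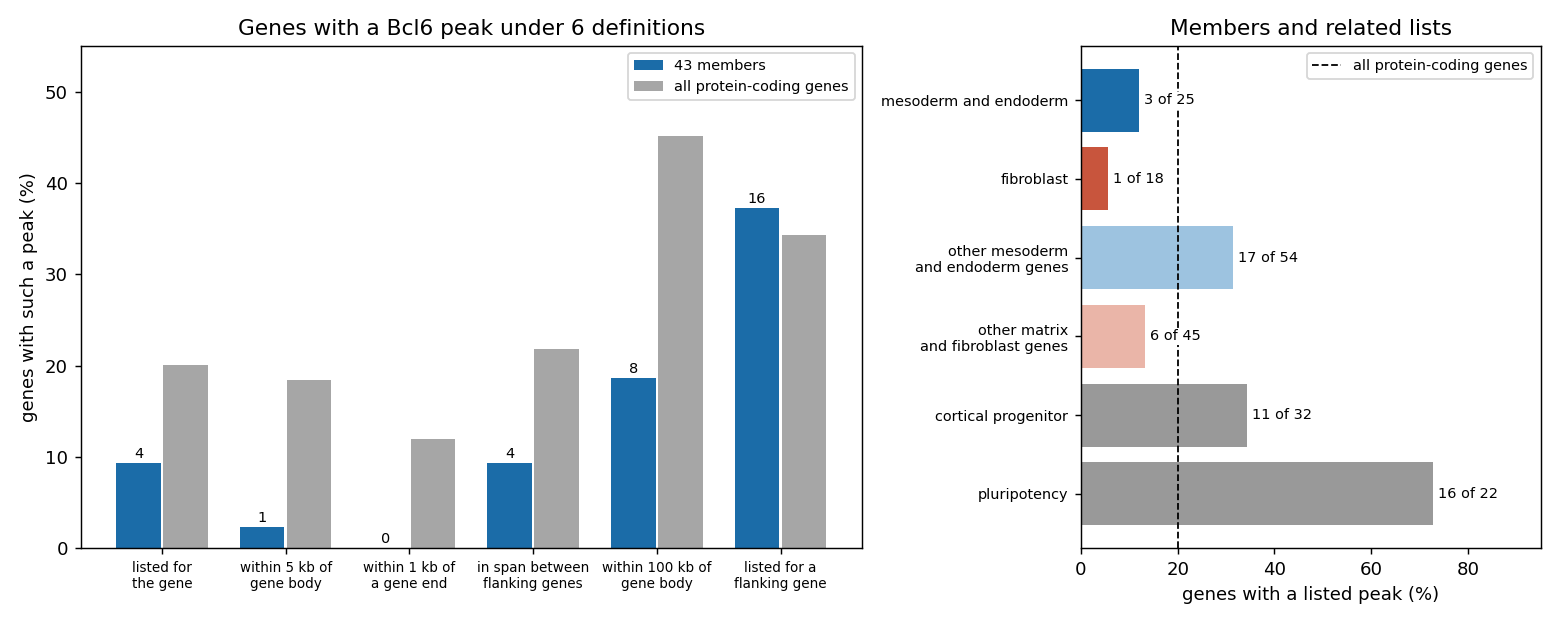
Left, percent of genes with a Bcl6 peak under 6 definitions, for the 43 members (blue, with the number of members above each bar) and all protein-coding genes (grey). The members are below all genes in the first 5 definitions and not for peaks listed for a flanking gene. Right, percent of genes with a listed peak in the 2 groups of members and in 4 related lists, with counts; the dashed line is the 20.1% of all protein-coding genes.

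Absence from the authors' list was set beside the peak positions, since that list names only genes with a peak. The stretch between the nearest protein-coding gene on the left and on the right of each member was searched for peak centres. It held none for 38 of the 39 members without a listed peak, and Fn1 was the exception. The list itself extends each gene's region by up to 1000000 bp, so most peaks in such a stretch would be listed for the member. The search therefore follows closely from the listing rule and gives no separate support for absence. In all, 4 of 43 such stretches held a peak (Fn1, Pax3, Loxl1 and Gata6), against 21.8% over all protein-coding genes. Snai1 was listed for a peak, but its centre lay beyond this stretch, inside the body of the neighbouring gene Rnf114.

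Members tended to stand in long stretches. The median stretch around a member was 125 kb, against 77.8 kb for all protein-coding genes, and 18 of the 43 members fell in the longest quartile (191 kb and more). In the related lists the median was longer still, at 247 kb for cortical progenitor and 180 kb for other mesoderm and endoderm genes. It was 153 kb for other matrix and fibroblast genes and 149 kb for pluripotency genes. Over all protein-coding genes the share with a listed peak had no steady order by the length of the stretch, at 22.8%, 17.9%, 19.6% and 20.1% from the shortest to the longest quartile. In the same order 0 of 5, 0 of 7, 2 of 13 and 2 of 18 members were listed for a peak. The longest stretches belonged to Isl1 (1749 kb), Hand2 (862 kb), Gata6 (815 kb), Pax3 (699.9 kb) and Dcn (645 kb). Those of Isl1, Hand2 and Dcn held 0 peaks, and those of Gata6 and Pax3 held 1 each.

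The share of listed genes next to the members was near the background. Of the 86 flanking protein-coding genes, counted once for each member they flank, 17 were listed for a peak (19.8%), close to the 20.2% over the flanks of all protein-coding genes. At least 1 flanking gene was listed for 16 of 43 members (37.2%), against 34.3% of all protein-coding genes. The number of peaks within 500 kb of the gene body had a median of 2 both for the members and for all genes, with a median of 12 and 15 protein-coding genes in that window. The spread around this median differed. That window held no peak for 14 members (32.6%), against 27.6% of all protein-coding genes. It held 5 or more for 9 members (20.9%), against 30.2%, and these differences were not tested. Mesp1 and Mesp2, Pdx1 and Cdx2, and Lum and Dcn are neighbours on their chromosomes, so these 6 of the 43 genes do not count as separate places.

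The promoters of the members were searched for the Bcl6 recognition sequence. RefSeq windows of 300 bases on GRCm38.p6, from 250 before to 50 after a start, were at hand for 27 of the 43 genes (30 windows). The motif searched was TTCCTAGAA on either strand, and the looser TTCNNNGAA, which reads the same on both strands, contains it and is shared with STAT factors. Neither was in any of the 30 windows, where 0.411% and 8.30% of all 32851 windows held them. In windows of genes with a listed peak within 1 kb of the TSS these shares were 0.276% and 6.47%. With 1 mismatch allowed, 3 of 30 windows held a match, against 8.63% of all windows.

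The 3 closest matches are shown because they are the nearest to the motif in the 30 windows searched. The promoters of the other 16 members, Gata6, Pax3, Loxl1 and Fn1 among them, were not searched. Capitals mark the 9 bases of the match, and the substitution counts from 1 at the 5′ end of the motif, with the motif's base first.
Hand2, chr8:57320829-57320857, plus strand, T1A: tggacaaccaATCCTAGAAgaggacctcg
Twist1, chr12:33957531-33957559, plus strand, G7T: agaggaaactTTCCTATAAaacttcgaaa
Tbx6, chr7:126781459-126781487, plus strand, motif read on the other strand, C3G: agaccccggaTTCTAGCAAcgggacacaa
The matches began 144 (Hand2), 130 (Twist1) and 14 bases (Tbx6) before the TSS. A match is a description of letters and not a site of binding. The nearest peak centres were 187 kb (Hand2), 2008 kb (Twist1) and 7.39 kb (Tbx6) from these genes. Snai1 was the only gene with both a listed peak and a promoter window, and the 250 bases before its start are shown because its peak lay elsewhere.
Snai1, chr2:167537945-167538194, plus strand: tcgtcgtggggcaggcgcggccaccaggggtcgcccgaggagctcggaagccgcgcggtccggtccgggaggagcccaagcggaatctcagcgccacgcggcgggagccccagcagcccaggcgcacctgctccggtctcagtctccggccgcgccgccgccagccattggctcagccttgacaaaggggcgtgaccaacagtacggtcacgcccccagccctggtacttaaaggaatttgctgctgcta
Sequence of the peaks themselves was not used here.

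The listed peaks of the 4 genes were all distant. Each was also listed for a second gene, as were 48.7% of all peaks with a listed gene. Pax3, a paired-box factor of the dorsal neural tube, neural crest and muscle precursors, had a peak on chromosome 1 from 77971900 to 77972817 (mm10), 224 kb downstream of its TSS and 129 kb from its gene body. It held 58 tags with 33.7-fold enrichment over the local input background, a p-value score (−10 log10 p) of 89.6 and an FDR of 0.58%. No gene of the RefSeq table spanned its centre. The same peak was listed for the axon guidance receptor gene Epha4, 457 kb upstream of that TSS. The fold was at or above that of 88.9% of all peaks, which had a median of 21.3-fold, quartiles of 16.8 and 27.2 and a range of 7.98 to 269.

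Gata6, a zinc finger factor of primitive endoderm and heart, had a peak of 33.2-fold 104 kb upstream of its TSS, on chromosome 18 from 10948605 to 10949297. Its fold was at or above that of 87.2% of peaks, but it was among the smallest, with 24 tags (at or above 0.903% of peaks) and a width of 693 bp (at or above 1.65%). The score of 50.8 was just over the cutoff of 50, and the FDR was 2.65%. The centre lay within the non-coding gene Gm35814. The second gene listed was Mib1, at 223 kb, whose product is a ubiquitin ligase needed for Notch ligand activity.

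Snai1, which encodes the Snail repressor of E-cadherin, had a peak of 18.1-fold 34.5 kb upstream, on chromosome 2 from 167502813 to 167504581. It held 62 tags over 1769 bp with a score of 61.6 and an FDR of 0.96%, and its fold was at or above that of 33.0% of peaks. The TSS of the second listed gene, Spata2, was closer to it, at 10.8 kb. Loxl1, a lysyl oxidase that cross-links elastin, had the widest of the 4 peaks, 4259 bp on chromosome 9 from 58273224 to 58277482. That peak held 188 tags, at or above 94.97% of peaks, at a fold of 14.4 that was at or above 12.2%, and it had a score of 69.7 and an FDR of 0.58%. It lay 37.9 kb downstream of the TSS of Loxl1, 12.4 kb past the end of the gene body, and 22.2 kb from the TSS of Stoml1.

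None of the 4 peaks had its centre within 1 kb of the TSS of a listed gene, while 2171 of the 3875 peaks with a listed gene did (56.0%). The distances of 34.5 to 224 kb were in the upper part of the range, where 27.9% of all 5801 listed pairs of a peak and a gene were 30 kb apart or more. The peaks listed for Pax3 and Gata6 were narrow and of high fold, and that of Loxl1 was wide and of low fold. The peak listed for Snai1 lay between, with a fold below the median of 21.3 and a width above the median of 1405 bp.

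**Figure D2:**
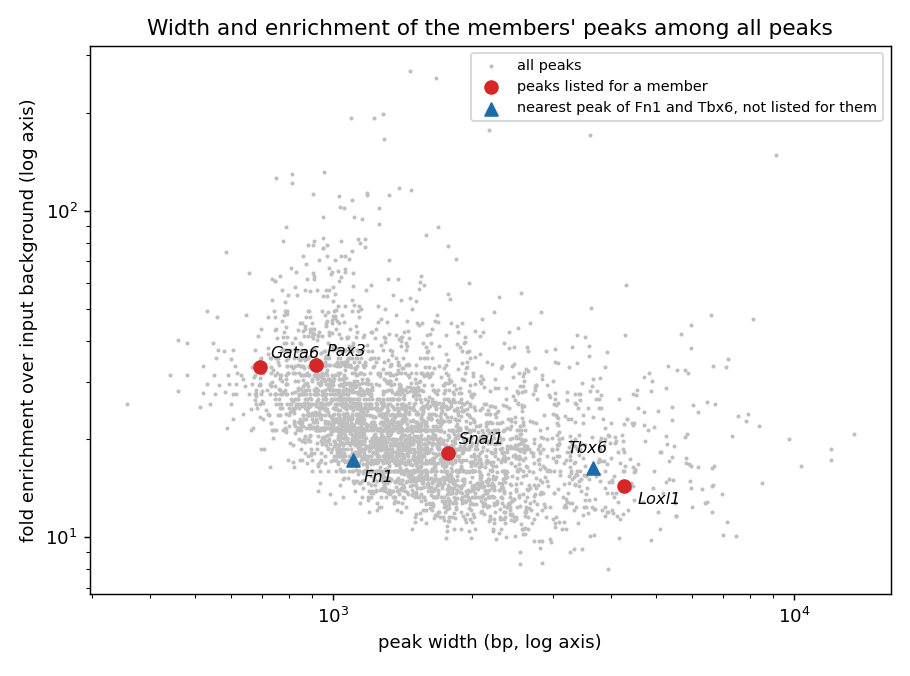
Peak width (bp) against fold enrichment over the input background, both on log axes, for all 3878 peaks (grey), the 4 peaks listed for a member (red) and the nearest peaks of Fn1 and Tbx6 (blue triangles). Gata6 and Pax3 sit at 693 and 918 bp with 33.2 and 33.7-fold, and Loxl1 at 4259 bp with 14.4-fold.

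Fn1 encodes fibronectin, the matrix glycoprotein that fibroblasts assemble into fibrils, and had the nearest peak of all 43 genes without being listed for it. The peak, on chromosome 1 from 71582890 to 71583992, had 35 tags, 17.2-fold enrichment and a score of 56.6, and its centre lay 2.03 kb from one end of the Fn1 body and 69.8 kb from the other. The authors' list gave it to Atic, at 26.3 kb, and to Apol7d, at 69.4 kb. In the RefSeq table Apol7d is a non-coding gene that begins 55 bp past the far end of Fn1. The TSS implied by the distance listed for Apol7d lies 443 bp from that end of Fn1. How the list treated Fn1 beside this non-coding gene was not tested, so its absence from the list is in doubt. Had genes with a peak centre within 5 kb of the gene body been counted as listed too, 2 of 18 fibroblast markers (11.1%) and 5 of all 43 members (11.6%) would have been counted, against 22.9% of all protein-coding genes.

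Tbx6, a T-box factor of paraxial mesoderm, came next at 7.39 kb. Its nearest peak held 217 tags over 3656 bp with 16.3-fold enrichment and was listed for Ppp4c, a phosphatase gene that is its right neighbour, 470 bp from that TSS. Tbx6 lay in the densest surroundings of the 43, with 53 protein-coding genes and 17 peaks within 500 kb, none of them listed for it.

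Across the 43 genes the distance from the gene body to the nearest peak centre had a median of 259 kb, against 132 kb for all protein-coding genes. The quartiles were 109 and 660 kb for the members and 18.9 and 583 kb for all protein-coding genes. The members ranged from 2.03 to 2900.4 kb, and 27 of 43 were farther than the median of all genes. A nearest peak over 1 Mb away was found for 8 of 43 (18.6%) and for 16.6% of all protein-coding genes. The shares beyond 1 Mb were close, while those within 100 kb, given above, were not. For 28 of the 39 members without a listed peak (71.8%) the nearest peak lay within 1 kb of the TSS of another gene, close to the 66.97% over all protein-coding genes without a listed peak.

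**Figure D3:**
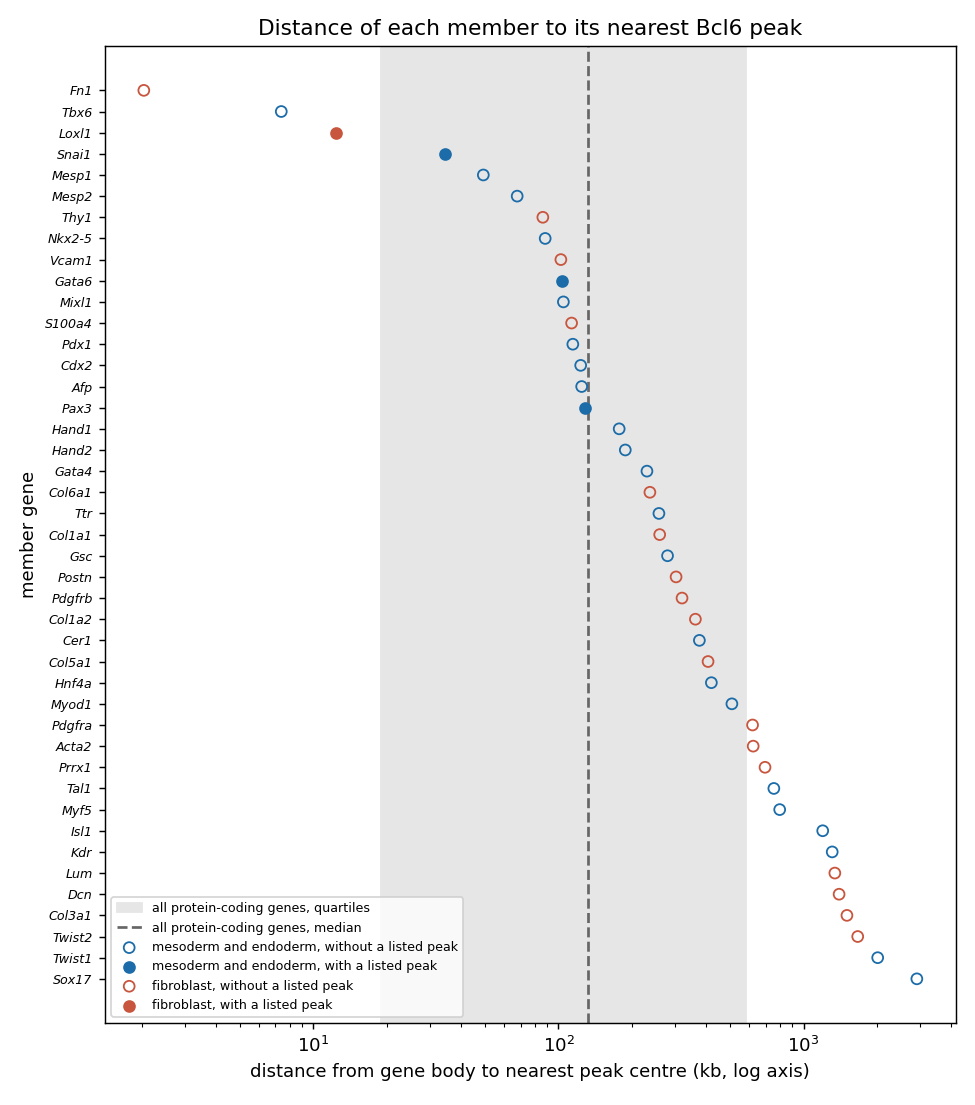
Distance in kb (log axis) from each member's gene body to the nearest peak centre, ordered by distance, for mesoderm and endoderm markers (blue) and fibroblast markers (red), filled where a peak was listed for the gene. The dashed line and grey band are the median of 132 kb and the quartiles of all protein-coding genes; Fn1 at 2.03 kb is the closest and Sox17 at 2900.4 kb the farthest.

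The counts of listed genes by role stand beside the 20.1% of all protein-coding genes. With so few genes a role, they are descriptions only and were not tested. Markers of the primitive streak and early mesoderm had 0 listed peaks among 6 genes. A peak centre lay within 100 kb of 3 of them, Tbx6, Mesp1 and Mesp2, against 45.2% of all protein-coding genes. Mesp1 and Mesp2, the neighbouring basic helix-loop-helix genes of cardiac and somitic mesoderm, shared a nearest peak of 25.3-fold, 49.4 and 67.8 kb away. That peak was listed for Wdr93 and Pex11a, 192 bp from the TSS of Pex11a. The homeobox gene Mixl1, which acts in the streak, was 105 kb from a peak of 17.7-fold listed for the histone gene H3f3a and Acbd3. The organizer gene Gsc was 279 kb from the promoter peak of Dicer1 (19.2-fold), its right neighbour. Cer1, which encodes the secreted Nodal and Wnt antagonist Cerberus, was 376 kb from a peak of 10.2-fold at the promoter of Nfib.

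Of the 8 endoderm markers, Gata6 alone was listed (12.5%, against 20.1% of all protein-coding genes). Gata4, its relative in heart and endoderm, was 229.7 kb from a peak of 13.8-fold near Tdh. Sox17, the SRY-box gene of definitive endoderm, was farther from a peak than any other member, 2900.4 kb from a peak of 28.4-fold listed for Pcmtd1. The neighbours Pdx1, a pancreatic homeobox gene, and Cdx2, an intestinal and trophectoderm homeobox gene, had peaks at 114 and 123 kb, on opposite sides, of 21.3-fold upstream of Gsx1 and 18.5-fold at the promoter of Pan3. Hnf4a, a nuclear receptor gene of liver, was 421 kb from a wide peak of 18.3-fold with 334 tags near Gtsf1l. The genes for the secreted liver proteins alpha-fetoprotein and transthyretin, Afp and Ttr, were 124 and 257 kb from peaks of 10.3 and 23.1-fold.

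None of the 6 heart and blood markers was listed, against 20.1% of all protein-coding genes. Nkx2-5, a homeobox gene of heart precursors, was 88.3 kb from the promoter peak of Phf1 (17.3-fold). Hand1 and Hand2, basic helix-loop-helix genes of heart and limb, were 177 and 187 kb from the promoter peaks of Larp1 (45.3-fold) and Hmgb2 (13.7-fold). Tal1, needed for blood formation, was 757 kb from a peak at Mob3c. Isl1, a LIM homeobox gene of the second heart field and motor neurons, and Kdr, the VEGF receptor gene of endothelium, had no peak within 1 Mb, with the nearest at 1198 and 1309 kb.

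Of the 5 muscle and mesenchymal transition factors 2 were listed (40%, against 20.1% of all protein-coding genes). These were Pax3 and Snai1, with the distant peaks given above. The myogenic factor genes Myod1 and Myf5 were 510.15 and 799 kb from a peak. Twist1, a driver of mesenchymal transition, was 2008 kb from the promoter peak of Hbp1, and its relative Twist2, counted here with the fibroblast factors, was 1664 kb from that of Farp2. Prrx1, a paired-related homeobox gene of limb and dermal fibroblasts, was 696 kb from the promoter peak of Mettl13.

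Of the 10 matrix genes 1 was listed (10%, against 20.1% of all protein-coding genes). The 10 held the listed peak of Loxl1 and the unlisted one at Fn1, and the rest were 236 to 1504 kb from a peak. The chains of type I collagen, Col1a1 and Col1a2, were 259 and 362 kb from the promoter peaks of Xylt2 (41.6-fold) and Ppp1r9a (25.1-fold). Col6a1 and Col5a1 were 236 and 408 kb from those of Pcbp3 (40.8-fold) and Ppp1r26 (29.6-fold). Postn, which encodes periostin, was 302 kb from the promoter peak of Supt20. Col3a1, the type III collagen gene, was 1504 kb from a peak, and the neighbouring small proteoglycan genes Lum and Dcn shared a nearest peak at Atp2b1, 1342 and 1397 kb away.

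Receptor and surface genes of fibroblasts had 0 listed peaks among 4 genes, against 20.1% of all protein-coding genes. Thy1 was 86.3 kb from the promoter peak of Mcam (20.2-fold). Vcam1 was 102 kb from a peak of 30.6-fold listed for Slc30a7 and Extl2, 270 bp from the TSS of Extl2. The platelet-derived growth factor receptor genes Pdgfra and Pdgfrb were 619 and 319 kb from a peak. The one nearest to Pdgfra, at the promoter of Scfd2, was the strongest of the 37 nearest peaks of the members without a listed peak, with 75.5-fold, 125 tags and a score of 338. The 37 had a median of 19.95-fold and a lowest value of 10.2-fold. S100a4, a calcium-binding protein of motile fibroblasts, was 113 kb from the promoter peak of Snapin, and Acta2, smooth muscle actin, was 623 kb from that of Pank1.

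**Figure D4:**
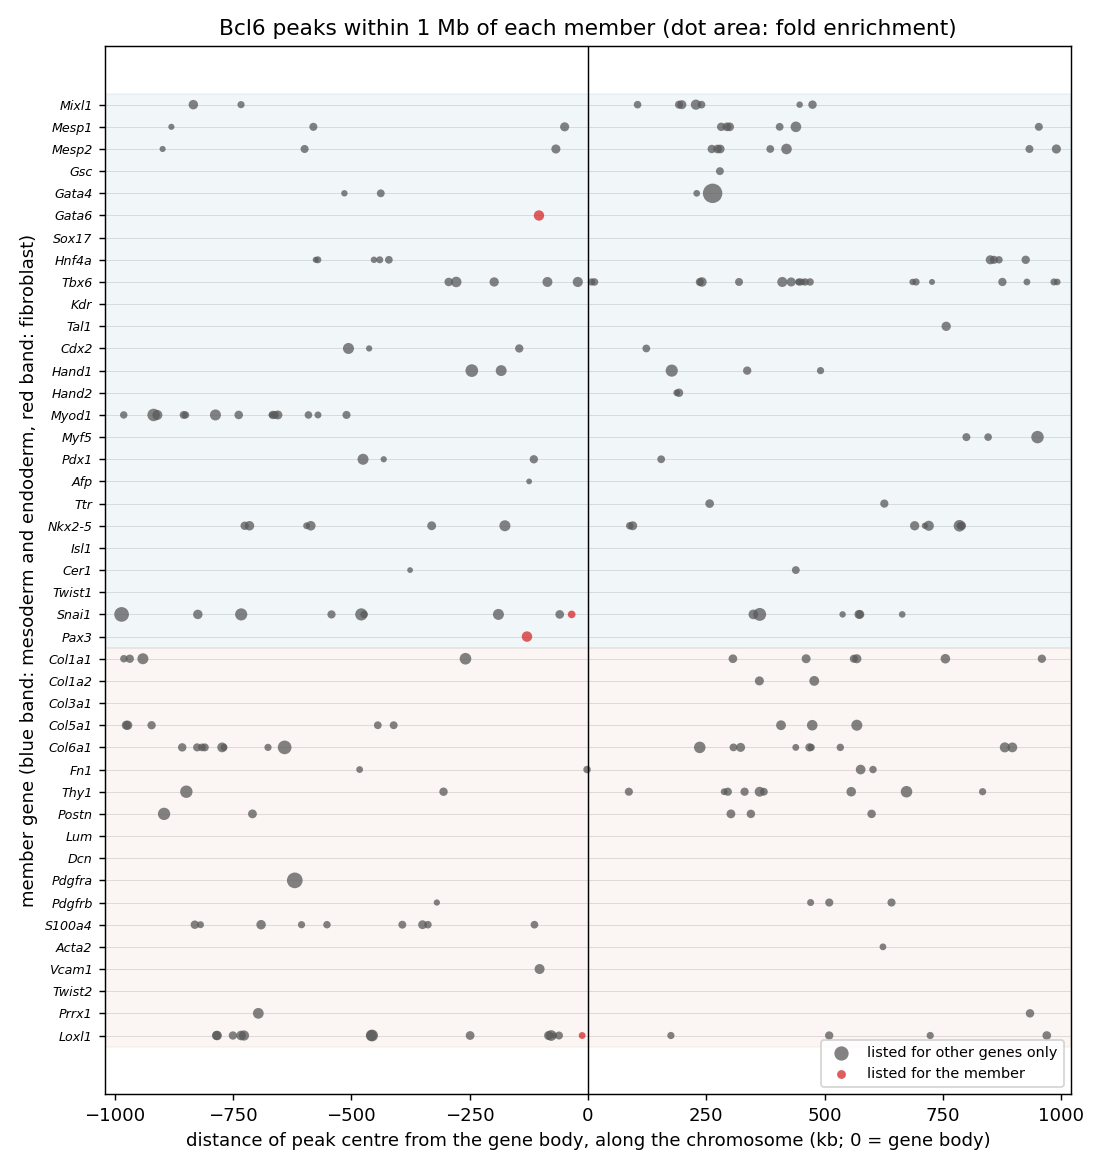
Every Bcl6 peak within 1 Mb of each member, by the distance of its centre from the gene body along the chromosome (kb, 0 is the gene body), with dot area in proportion to fold enrichment. Red dots are the 4 peaks listed for a member and grey dots are peaks listed for other genes only; 8 rows, Sox17, Kdr, Isl1, Twist1, Col3a1, Lum, Dcn and Twist2, hold no dot.

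In a further list of 54 other mesoderm and endoderm genes, none of them a member, 17 had a listed peak (31.5%), above the 20.1% of all protein-coding genes. Close to the gene they were not above the background: a peak centre was within 5 kb of the gene body in 10 of the 54 (18.5%, against 18.4%) and within 1 kb of a gene end in 2 (3.70%, against 12.0%). In 1 of the 17, Gata3, a listed peak was within 1 kb of the TSS. The strongest were those of Tbx18, a T-box gene of epicardium and somites (72.7-fold, 333 kb upstream), the erythroid factor gene Gata1 (67.0-fold, 11.2 kb downstream) and the chemokine receptor gene Cxcr4 (40.8-fold, 151 kb). Of 45 other matrix and fibroblast genes, 6 had a listed peak (13.3%). A peak centre, listed for the gene or not, was within 5 kb of the gene body in 4 of the 45 (8.89%). It was within 1 kb of a gene end in 1 (2.22%). The strongest listed peaks were at Mmp14, a membrane metalloproteinase gene (34.6-fold, 220 bp from the TSS), Ccn1 (30.1-fold, 3.03 kb upstream) and Fmod (23.4-fold, 37.5 kb). The differences between these lists and the members were not tested.

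Genes of the culture's own lineage and of the starting ES cells were also counted against the 20.1% of all protein-coding genes. Among 32 cortical progenitor genes 11 had a listed peak (34.4%), 4 of them within 1 kb of the TSS, with the highest folds at Sox2 (55.9-fold, 95.1 kb), Id4 (39.4-fold, 15.8 kb upstream) and Emx1 (37.4-fold, 77 bp). Among 22 pluripotency genes 16 did (72.7%), 2 of them within 1 kb of the TSS, with Sox2 again, Zfp42 (37.4-fold, 13.9 kb upstream) and Tbx3 (31.5-fold, 615 kb upstream) at the top. Only the strongest peak of each gene is given. Sox2 had 5 listed peaks, Zfp42 had 4 and Tbx3 had 4, and the closest peak of Tbx3 was within 1 kb of its TSS. The median distance to the nearest peak was 86.1 kb for the cortical progenitor genes, 0.619 kb for the pluripotency genes, 122 kb for the other mesoderm and endoderm genes and 153 kb for the other matrix genes, against 259 kb for the members. Genes flanking the cortical progenitor and pluripotency genes were also listed at higher shares, 29.7% and 54.5%. The flanks of the other mesoderm and endoderm genes were listed at 29.6%, near the cortical progenitor share, and those of the other matrix genes at 23.3%. These stood against 20.2% over the flanks of all protein-coding genes and 19.8% for the members. Of all peaks with a listed gene 48.7% were listed for 2 genes, so the same peak can count for a gene and its flank. The flank shares are therefore not separate from the shares of the lists. Some genes, Sox2 among them, were in 2 of these lists, and the differences from the members were not tested.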

How the data were processed

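MACS 1.4.2 called the peaks (p-value cutoff 1e-05) on the pooled libraries, per the file headers. Bowtie and mm10 are named in the submitters' processing notes, with no version. Tags per peak are raw counts deposited by the authors, fold enrichment is a ratio over the local input background computed by the authors' peak caller, and the FDR was deposited by the authors as a percent. The p-value score deposited by the authors is −10 log10 p; its column name was overwritten, and it was identified by column order and its minimum. Genes were tied to peaks by GREAT 3.0.0 (5000 bp before and 1000 bp after each TSS, extended to at most 1000000 bp), per the file headers; peak numbers follow the rows of the peak table.

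Symbols were matched to the RefSeq gene table (GRCm38.p6, the same build as mm10), which matched 98.6% of 5801 pairs of a peak and a gene, and 3 pairs on another chromosome were left out. Distances and counts were computed from peak centres with numpy 2.4.6 and pandas 2.3.3, and the distance and window functions were tested on artificial peaks placed at known distances. Shares stand beside those of all 21887 protein-coding genes. No test was run, since the data are 1 pooled set. The members and lists were chosen with earlier results of these data known. All 43 members are accounted for by name, and the 3 genes of highest fold are named in each further list.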

Additional observations from a re-analysis of the deposited data

How the results depend on the processing

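The number of members with a listed peak was 1 of 43 with the 1939 peaks of the highest scores (Pax3), 2 with peaks at or above the median fold (Gata6 and Pax3), 2 with each peak given to its nearest listed TSS (Gata6 and Pax3), 2 with peaks within 100 kb of the TSS (Snai1 and Loxl1) and 0 within 5 kb. For mesoderm and endoderm markers it was 1 with the highest scores, 1 within 100 kb and 0 within 5 kb. The single fibroblast gene, Loxl1, gave 0 with the highest scores, with the highest folds, without peaks over 2 kb wide, by the nearest TSS and within 5 kb. It gave 2, with Fn1, when genes with a peak centre within 5 kb of the gene body were counted too, a choice made after seeing the data. Members with a peak within 5 kb of the gene body were 0 with the highest scores or folds, against 9.94% and 9.65% of all genes. At 10 kb they were 2, against 21.1%. Members with a peak between their flanking genes were 1 with the highest scores (11.9% of all genes) and 2 with the highest folds (12.6%). The median distance to a peak became 475 kb with the highest scores, against 319.7 kb for all genes. Promoter windows with the motif were 3 of 30 with 1 mismatch, against 8.63% of all windows. For listed peaks the share of all protein-coding genes fell too, to 10.8% with the highest scores and 11.7% with the highest folds. It was 16.6% without peaks over 2 kb wide, 14.8% by the nearest TSS, 18.3% within 100 kb and 12.8% within 5 kb. The share of the 43 members stayed below each of these. Peaks within 1 kb of a gene end were 0 of 43 under all 7 alternatives. Counts as small as 4 move by a large ratio when 1 or 2 peaks drop, and a peak under the score cutoff of 50 was not detectable at this depth. No paired analysis was possible because the replicates were pooled before peak calling, and no replicate could be left out for the same reason.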

Other observations

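The genes were also counted by family, a grouping made after the values were seen; 20.1% of all protein-coding genes had a listed peak, and with so few genes a family the counts are descriptions only. Of 6 Gata genes, 4 were listed for a peak: the blood and trophoblast factors Gata1 (67.0-fold), Gata2 (26.6-fold) and Gata3 (30.4-fold), and Gata6 (33.2-fold). Gata4 and Gata5 were not. Of 5 genes of Nodal signalling, which patterns the primitive streak, Nodal itself (28.2-fold, 7.73 kb from the TSS) and its inhibitors Lefty1 (31.9-fold, 9.96 kb upstream) and Lefty2 (24.8-fold, 2.20 kb) were listed, while the antagonist gene Cer1 and the transducer gene Foxh1 were not.

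Both Pax3 and its paralogue Pax7, which marks muscle stem cells and neural crest, had 1 distant peak each, at 224 and 149 kb with 33.7 and 19.5-fold. None of the 4 myogenic factor genes Myod1, Myf5, Myf6 and Myog was listed, and neither was any of the 3 Cdx genes. Of 14 collagen genes in the lists, 2 were listed, Col14a1 (13.9-fold) and Col16a1 (23.1-fold), neither of them a member. Of 5 lysyl oxidase genes, Loxl1 alone was listed, a share at the background. Of the 8 T-box genes counted here 3 were listed (Tbx3, Tbx5 and Tbx18), and of 4 Snail and Zeb genes 2 were (Snai1 and Zeb2). None of these counts was tested.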
